A study of Mus musculus with 2 samples.

Results

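The cells described here are T cells with Foxp3 RNA, the gate set up for regulatory T cells, among leukocytes sorted from B16-F10 melanomas. They were chosen by measured UMIs (unique molecular identifiers, each marking 1 captured transcript) in single barcodes. A barcode had to hold 500 or more UMIs from 200 or more genes, no more than 10% of them mitochondrial. It then needed at least 1 UMI of Foxp3 and at least 1 of the CD3 genes Cd3d, Cd3e and Cd3g, and no UMI of Cd8a or Cd8b1. It was refused with any UMI of Spi1, Cd209a, C1qa, C1qb, Csf1r or Cd79a, which mark myeloid and B cells, or with more than 3 UMIs of the class II genes H2-Aa and H2-Ab1. The rule kept 85 of the 18539 barcodes past the first limits, 24 of 8444 in the Control library and 61 of 10095 in the DOPAC library.

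Wild-type mice (genotype label WT) bore tumors of B16-F10, a mouse melanoma line, and received vehicle (Control) or DOPAC, dihydroxyphenylacetic acid, which forms when dopamine is degraded. CD45-positive cells, that is leukocytes, were flow-sorted from the tumors and their polyadenylated RNA was sequenced in droplets. The design names 4 mice per group, but each group is 1 library with no tag that gives a cell's mouse, so the mice are pooled and a library is 1 sample. Sex, age, dose and route are not given in the sources used here, and the extraction text speaks of colon tissue where the tissue label and the design say tumor. With 1 library per group there was no replicate check and no test; all intervals are 95% intervals for counting error only, and cells of a library are not replicates.

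Regulatory T cells are CD4 T cells that restrain other lymphocytes. The transcription factor FOXP3 holds their program in place, and they depend on interleukin-2 from neighbouring cells, which they bind through the high-affinity receptor chain CD25, the product of Il2ra. In tumors they commonly carry the inhibitory receptor CTLA-4 and the co-stimulatory receptors OX40 (Tnfrsf4) and GITR (Tnfrsf18), and many express Helios (Ikzf2), a transcription factor related to Ikaros. In GRCm38 coordinates, Foxp3 (ENSMUSG00000039521) lies on chromosome X from 7573644 to 7595245, Il2ra (ENSMUSG00000026770) on chromosome 2 from 11642807 to 11693193, and Ctla4 (ENSMUSG00000026011) and Ikzf2 (ENSMUSG00000025997) on chromosome 1 from 60887000 to 60915832 and from 69531214 to 69687245. Tnfrsf4 (ENSMUSG00000029075) and Tnfrsf18 (ENSMUSG00000041954) are neighbours on chromosome 4, from 156013843 to 156016612 and from 156026164 to 156028895.

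The libraries differed in depth and in myeloid and class II RNA among barcodes with CD3 RNA, and both touch the gate. The source of this RNA was not tested. The median barcode held 9571.5 UMIs in Control and 3677 in DOPAC, and 28 barcode sequences occurred in both libraries, none of them a Foxp3 T cell. Foxp3 T cells held 122533 UMIs in Control (median 4610 per cell, range 1311 to 14477) and 208001 in DOPAC (median 2842, range 774 to 10095), with medians of 1921.5 and 1409 genes. Among all barcodes with CD3 RNA, 41.1% in Control and 14.1% in DOPAC had a Spi1 UMI, and 65.7% and 25.4% a UMI of C1qa, C1qb or Csf1r. More than 3 class II UMIs were found in 58.9% and 23.9% of them.

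The number of Foxp3 T cells in each library turned on the limits for other lineages. Foxp3, CD3 and absent CD8 RNA alone were met by 161 Control and 79 DOPAC barcodes, and the limits then kept 24 (14.9%, 9.79 to 21.4) and 61 (77.2%, 66.4 to 85.9). In Control the Spi1 step took away 86 barcodes and the step on C1qa, C1qb and Csf1r 40, against 4 and 7 in DOPAC. As shares of all barcodes, Foxp3 T cells were 0.284% (0.182 to 0.423) of Control and 0.604% (0.463 to 0.776) of DOPAC, a difference of 0.320 percentage points (0.128 to 0.515). Without the limits on other lineages the shares were 1.91% and 0.783%, and the difference turned to -1.12 points (-1.47 to -0.793). With up to 2 UMIs of the limiting genes allowed and the class II limit kept, 47 Control (0.557%) and 66 DOPAC barcodes (0.654%) passed, and the difference of 0.0972 points (-0.133 to 0.322) had an interval on both sides of 0. Among cells that met every step but Foxp3, 24 of 354 in Control (6.78%) and 61 of 1261 in DOPAC (4.84%) had a Foxp3 UMI, a difference of -1.94 points (-5.23 to 0.612). With every cell thinned to 1000 UMIs before gating, 17 of 8341 and 19 of 9682 passed. The order of the libraries in Foxp3 T-cell share therefore depended on how the limits were drawn.

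**Figure D1:**
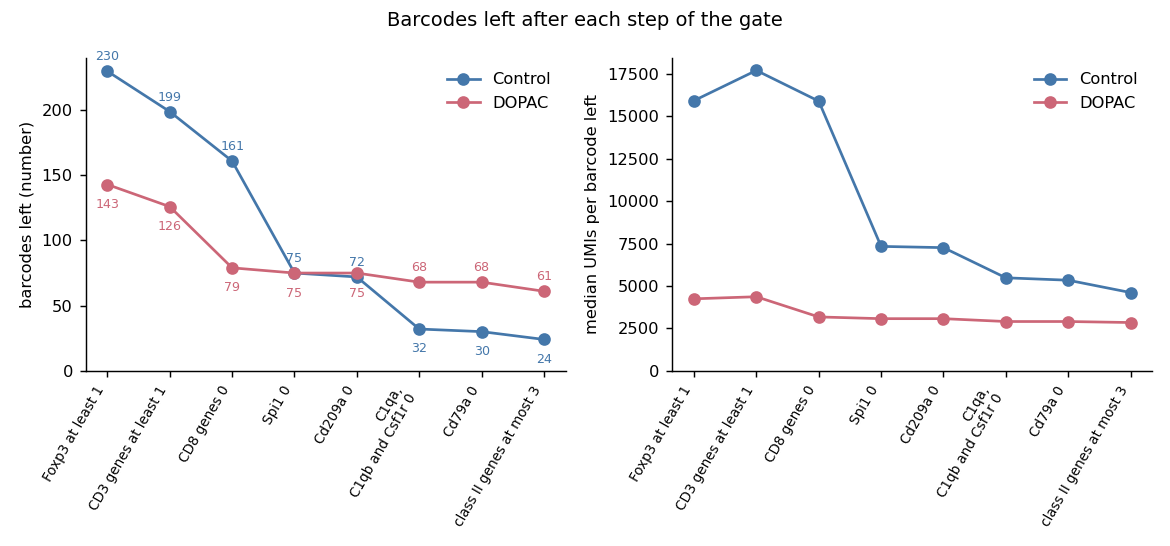
The left panel plots the number of barcodes left and the right panel their median UMIs after each step of the gate, from the Foxp3 step on, for Control (blue) and DOPAC (red). Control starts higher at 230 barcodes and ends at 24, with its largest losses at the Spi1 and C1q/Csf1r steps and a median depth that falls from 15933 to 4610 UMIs; DOPAC goes from 143 to 61.

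In Control, the barcodes just outside the gate carried the same regulatory T-cell genes. Pooled over all barcodes outside the limits, these genes stood lower than inside in both libraries. For the 137 Control barcodes, Il2ra stood at 259 CPM outside and 335 CPM inside, and Ctla4 at 754 and 2097 CPM. For the 18 DOPAC barcodes, Il2ra stood at 84.1 CPM outside and 529 CPM inside, and Ctla4 at 1169 and 2183 CPM. In Control, 6 barcodes failed on class II genes alone, with a median of 7 class II UMIs, and Ctla4 stood at 3264 CPM (UMIs of the gene per 1e6 UMIs summed over the cells) and Ikzf2 at 4974 CPM in them. A further 35 Control barcodes, those with more than 3 class II UMIs included, had 1 or 2 UMIs of the limiting genes, and 32 of them had a Tnfrsf4 UMI. Ctla4 stood at 1143 CPM in these 35. The 44 Control barcodes with 3 to 9 such UMIs had a median of 21699 UMIs and 55 class II UMIs, and the 52 with 10 or more had 25900 and 287; Ctla4 was lower there, at 936 and 451 CPM, while Cd74, a class II partner, was at 5385 and 8502 CPM there and at 375 CPM in Control Foxp3 T cells. Scrublet, a doublet caller, marked 9 of the 137 Control barcodes outside the limits and 0 of 24 inside, and 5 of 18 and 2 of 61 in DOPAC. A CD8 UMI alone excluded 2 Control and 23 DOPAC barcodes with Foxp3, or 1.05% and 0.830% of the CD8 T cells that met the other limits.

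The gate rested on few Foxp3 UMIs per cell. Of the Control Foxp3 T cells, 10 had 1 Foxp3 UMI and 14 had 2 or more, with at most 6; of the DOPAC cells, 38 had 1 and 23 had 2 or more, with at most 5. The summed level was 433 CPM (324 to 566) in Control and 452 CPM (365 to 553) in DOPAC, values the gate itself selected. In B cells, which should lack Foxp3, 0 of 400 Control cells had a UMI (median depth 4199 UMIs), and 0 of 22 in DOPAC (median 1503.5 UMIs). By a limit of 3 cells these counts allow shares of cells with a UMI of up to 0.750% and 13.6%, and by the Clopper-Pearson bound up to 0.918% and 15.4%. NK cells had a Foxp3 UMI in 0 of 173 and 1 of 208 cells, and macrophages in 5 of 1074 (0.466%) and 1 of 328 (0.305%).

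The label was checked against the markers the gate did not use. At least 3 of the 5 genes Il2ra, Ctla4, Tnfrsf4, Tnfrsf18 and Ikzf2 were found in 21 of 24 Control and 51 of 61 DOPAC Foxp3 T cells (87.5% and 83.6%), and no Foxp3 T cell lacked all 5. Among CD4 T cells without a Foxp3 UMI this held for 8 of 55 in Control and 33 of 82 in DOPAC, and among CD8 T cells for 7 of 183 (3.83%) and 720 of 2711 (26.6%). The marker combination was thus common in DOPAC T cells outside the gate as well. Cd4 RNA itself was found in 8 of 24 and 20 of 61 Foxp3 T cells (33.3% and 32.8%), against 1.75% of Control B cells.

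Ctla4, whose product competes with CD28 for its ligands, was found in 24 of 24 Control and 60 of 61 DOPAC Foxp3 T cells. Its median was 6.5 UMIs per Control cell (at most 31) and 7 per DOPAC cell (at most 20), and its level 2097 CPM (1849 to 2370) and 2183 CPM (1987 to 2393). The libraries did not differ detectably in Ctla4 at this depth, at 1.04-fold (0.891 to 1.22) DOPAC over Control. Ikzf2 was the most abundant marker by UMIs, in 20 of 24 and 57 of 61 cells, with 3322 CPM (3007 to 3660) in Control and 4611 CPM (4323 to 4912) in DOPAC, 1.39-fold higher (1.23 to 1.56). Its spread between cells was wide, from 0 to 65 UMIs in Control and 0 to 89 in DOPAC. Macrophages had 32.5 and 46.8 CPM of Ikzf2 and 8.71 and 14.4 CPM of Ctla4.

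Il2ra was found in 14 of 24 and 39 of 61 Foxp3 T cells, at 335 CPM (240 to 454) in Control and 529 CPM (435 to 637) in DOPAC, 1.58-fold higher (1.09 to 2.32). Tnfrsf4 stood at 759 CPM (613 to 930) and 644 CPM (540 to 763), a ratio of 0.849 (0.647 to 1.12). Tnfrsf18 went the other way from Il2ra. It was found in 22 of 24 Control and 33 of 61 DOPAC cells and was 1.90-fold (1.31 to 2.76) lower in DOPAC, at 279 CPM (212 to 360) against 530 CPM (409 to 676). After thinning to 1000 UMIs the Tnfrsf18 shares were 33.3% (15.6 to 55.3) and 25.4% (14.98 to 38.4), which overlap. None of the 5 markers reached a 2-fold difference between libraries, and their median log2 ratio was 0.06.

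**Figure D2:**
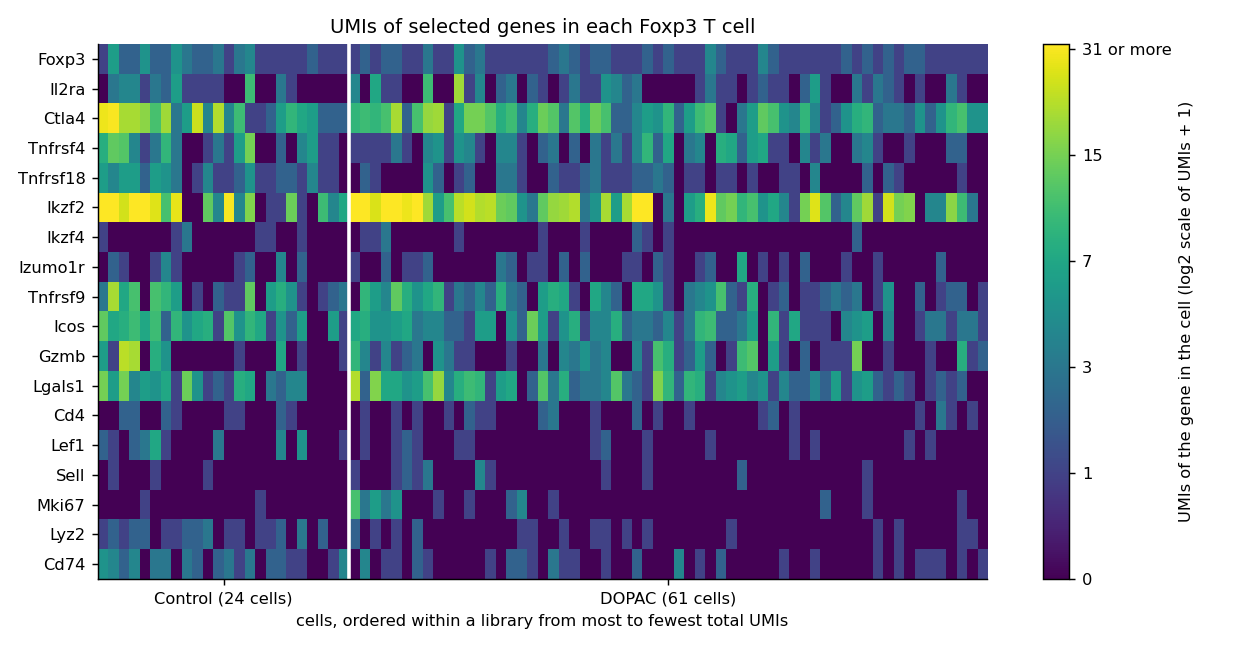
Each column is 1 Foxp3 T cell (24 Control, 61 DOPAC, ordered by total UMIs within a library) and each row a gene; colour gives the gene's UMIs in that cell on a log2 scale of UMIs + 1, with 31 or more at the top of the scale. Ctla4 and Ikzf2 are bright in many cells of both libraries and dim or dark in others, Foxp3 is mostly 1 to 2 UMIs, and Lyz2 and Cd74, genes of myeloid and class II cells, are low.

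The next comparison asked which genes set Foxp3 T cells apart from CD4 T cells that met the same limits, had a Cd4 UMI and had no Foxp3 UMI (55 Control and 82 DOPAC cells). Because Foxp3 is sparse, that group can hold regulatory T cells whose Foxp3 RNA was missed. Genes were compared where the 2 sums held at least 50 UMIs together in each library, and a gene was counted when it was at least 2-fold apart in the same direction in both libraries, by the log2 ratio with 1 count added. Of 1366 genes, 22 (1.61%) were higher in Foxp3 T cells and 12 (0.878%) were lower. In 1 library alone 8.42% were higher in Control and 2.56% in DOPAC. Of the 5 markers, 4 were among the 22, with a median log2 ratio over the 5 of 2.79 in Control and 1.51 in DOPAC, beside 0.08 and 0.00 over all genes.

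Ikzf2 was 9.32-fold (7.52 to 11.6) higher than in the CD4 T cells in Control and 3.66-fold (3.23 to 4.16) in DOPAC, and Ctla4 6.98-fold (5.48 to 8.97) and 2.85-fold (2.41 to 3.38). Il2ra was 2.67-fold (1.67 to 4.26) and 3.80-fold (2.60 to 5.68) higher, and Tnfrsf4 8.52-fold (5.50 to 13.6) and 2.09-fold (1.58 to 2.79). Tnfrsf18 was 3.57-fold higher in Control but 1.48-fold (0.999 to 2.21) in DOPAC, and so was not counted. The smaller DOPAC ratios went with higher levels in the DOPAC comparison cells, where Ctla4 stood at 766 CPM against 300 CPM in Control and Ikzf2 at 1259 against 357 CPM.

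**Figure D3:**
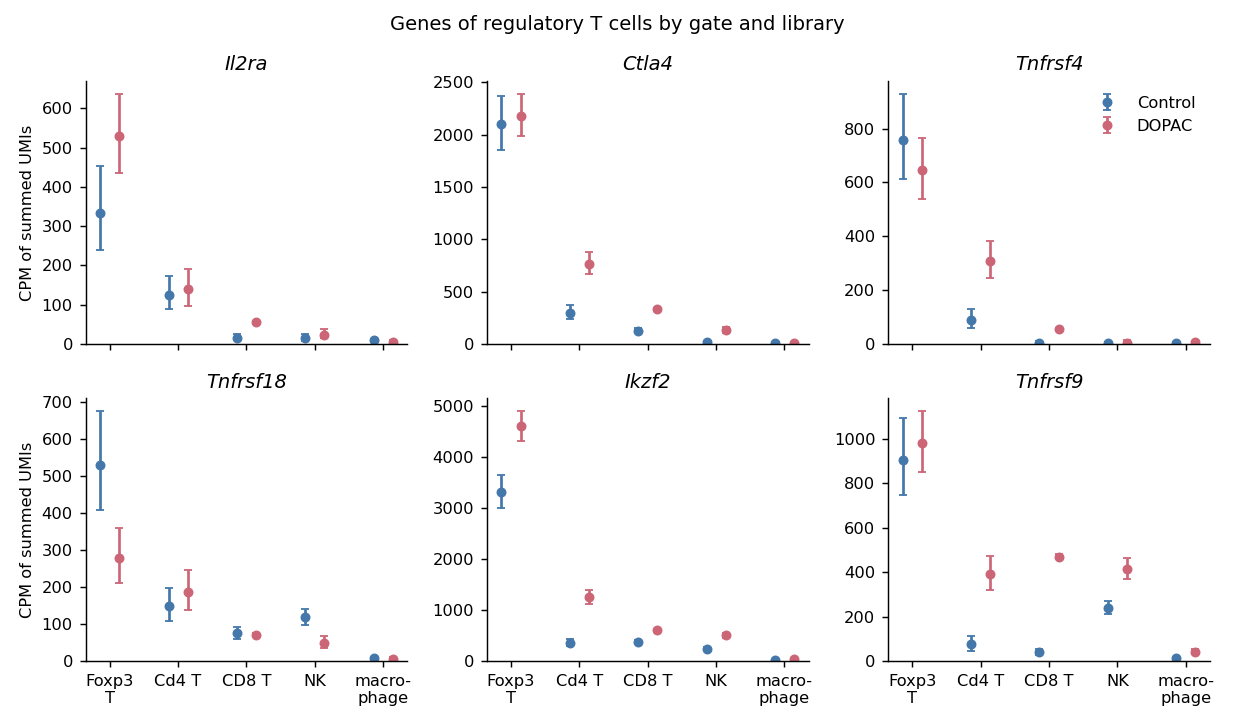
Points give CPM of summed UMIs with 95% counting intervals for 5 markers and Tnfrsf9 in 5 gates, Control in blue and DOPAC in red, with a linear axis from 0 in each panel. Within each library, Foxp3 T cells are the highest of the 5 in every panel; Tnfrsf9 stands at 906 and 981 CPM there and at 470 CPM in DOPAC CD8 T cells.

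Of 9 measured effector regulatory T-cell genes, Tnfrsf9 and Myo1e were higher in both libraries and 0 lower, beside 1.61% and 0.878% of all genes. The list's medians were 0.34 in Control and 0.20 in DOPAC, beside 0.08 and 0.00 over all genes. None of 5 measured core genes reached 2-fold in both, with medians of 1.18 and 0.73. Tnfrsf9, which encodes the co-stimulatory receptor 4-1BB, was at 906 CPM (745 to 1091) in Control and 981 CPM (851 to 1125) in DOPAC Foxp3 T cells, 11.9-fold (7.56 to 19.6) and 2.51-fold (1.97 to 3.21) above the CD4 T cells. Ccr2, a receptor for monocyte-attracting chemokines, was 3.71-fold (2.32 to 5.99) and 2.54-fold (1.83 to 3.54) higher, at 392 and 553 CPM. Hopx, a homeodomain-only cofactor, was 3.27-fold and 2.82-fold higher, and Glrx, which encodes glutaredoxin, 6.73-fold and 2.95-fold. Sh3rf1, a scaffold protein and ubiquitin ligase, was at 792 and 635 CPM, 3.38-fold and 3.02-fold higher. The regulators of small GTPases Arhgef18 and Arhgap31 were 3.30-fold and 2.76-fold higher in Control and 3.75-fold and 2.82-fold in DOPAC. The myosin gene Myo1e was 4.36-fold (2.48 to 7.83) and 4.44-fold (2.46 to 8.48) higher, although its level in another gate outside the T lineage was 3.90 times that of Foxp3 T cells. Mxi1, a MAX-binding repressor of the hypoxia list, was 3.78-fold and 2.03-fold higher.

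By the smaller of the ratios in both libraries, Pde3b was the lowest gene. This phosphodiesterase gene, known to be kept low by FOXP3, had 6 UMIs in Control and 10 in DOPAC Foxp3 T cells against 274 and 101 in the CD4 T cells, 18.5-fold (8.38 to 50.8) and 7.89-fold (4.12 to 17.0) lower. Themis, which tunes T-cell receptor signals, was 8.31-fold (4.29 to 18.5) and 3.49-fold (2.67 to 4.63) lower. Ifng, the T helper cytokine interferon gamma, had 1 UMI in Control Foxp3 T cells and 65 in the CD4 T cells, 26.3-fold lower (4.56 to 1054), and was 3.63-fold (2.02 to 7.001) lower in DOPAC. Bach2, a repressor that keeps T cells from effector fates, was 3.26-fold and 2.59-fold lower, Itga4, an integrin chain, 6.36-fold and 2.70-fold, and Ms4a4b 2.75-fold and 2.77-fold. Ccl5, Arap2, Mctp2, Itgb1 and the resting-cell factor Lef1 were also lower in both libraries. Mctp2 rested on 1 UMI in Control Foxp3 T cells.

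**Figure D4:**
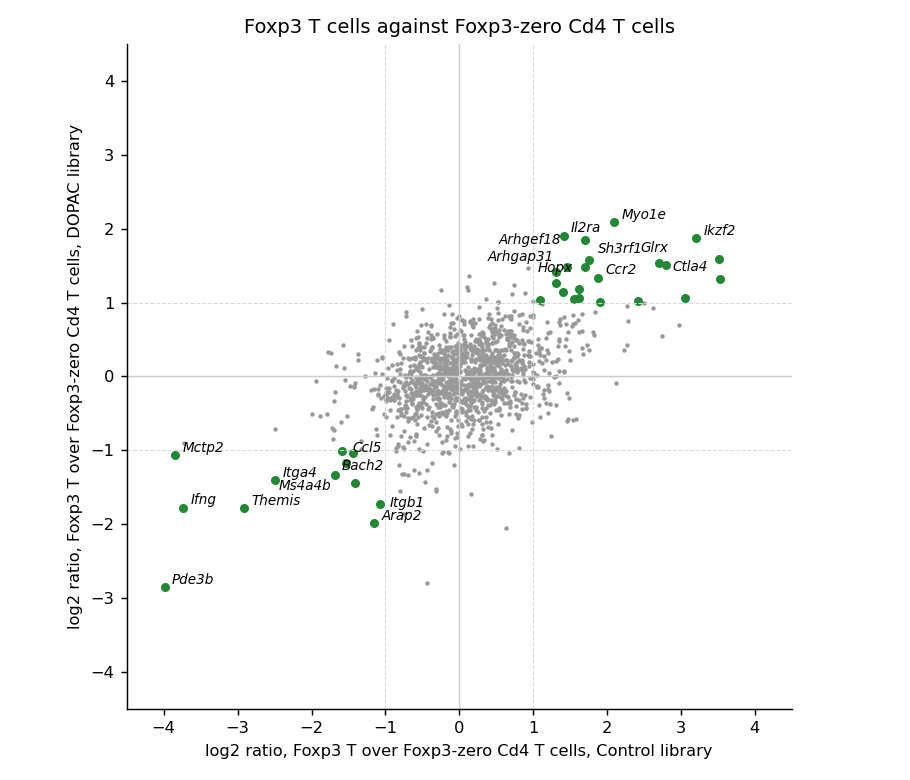
Each point is 1 of 1366 genes; the axes give the log2 ratio of Foxp3 T cells over CD4 T cells without Foxp3 in Control (x) and DOPAC (y), with dashed lines at 2-fold. Green points are the 22 genes higher and 12 lower in both libraries, with the genes chosen by rule named; Pde3b is at the lower left and Ikzf2 and Myo1e at the upper right.

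Against CD8 T cells without Foxp3 or Cd4 UMIs (183 Control and 2711 DOPAC cells), 193 of 3838 genes (5.03%) were higher and 64 (1.67%) were lower in both libraries. Maf, a transcription factor that supports Il10, was the most distant gene by the smaller of both ratios, at 547 CPM in Control and 1394 CPM in DOPAC Foxp3 T cells against 10.3 and 45.7 CPM, 53.3-fold (28.6 to 108) and 30.5-fold (26.5 to 35.1). Sh3rf1 was 28.9-fold higher in Control, where CD8 T cells had 32 UMIs, and at 635 against 38.2 CPM in DOPAC. Ikzf2 was 8.55-fold (7.46 to 9.80) and 7.39-fold (6.90 to 7.89) higher, and Tnfrsf4 11.7-fold (9.66 to 14.1) in DOPAC. Klrd1, Gzmk and Fasl were among the lower genes. Gzmk, a granzyme, had 0 UMIs in Foxp3 T cells of both libraries, against 75 and 868 UMIs in CD8 T cells, and Fasl, which encodes the death ligand FASL, had 0 against 56 and 800. Klrd1, the partner chain of the NKG2 receptors, had 1 and 5 UMIs against 224 and 5284.

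RNA of suppressive effector genes was present in both libraries, but was not set apart from CD4 T cells without Foxp3. Of 5 genes of this list measured in that comparison, 0 were higher and 0 lower in both libraries. Their median log2 ratios over the CD4 T cells were 0.15 in Control and -0.70 in DOPAC, beside 0.08 and 0.00 over all genes. Gzmb, which encodes granzyme B, was found in 10 of 24 Control and 41 of 61 DOPAC Foxp3 T cells (41.7% and 67.2%), with at most 22 and 15 UMIs in a cell. Its level was 588 CPM (460 to 740) in Control and 745 CPM (632 to 872) in DOPAC, 1.27-fold (0.953 to 1.70). B cells had Gzmb in 2.75% and 4.55% of cells, and macrophages at 11.8 and 45.6 CPM. Foxp3 T cells and CD8 T cells stood in opposite order in the libraries, since DOPAC CD8 T cells had 1260 CPM and Control CD8 T cells 108 CPM. Prf1, which encodes perforin, had 0 UMIs in Control Foxp3 T cells and 9 in DOPAC, and 10 of 10 Control and 34 of 41 DOPAC cells with Gzmb had no Prf1 UMI. Il10 was at 131 CPM (74.6 to 212) and 192 CPM (137 to 262), with 7 and 20 positive cells; macrophages had 161 and 157 CPM. Lgals1, which encodes galectin-1, was 1.64-fold (1.32 to 2.06) higher in DOPAC at 1476 against 898 CPM, while it was 4.32-fold higher in DOPAC CD8 T cells. In CD4 T cells without Foxp3, Lgals1 was 4.11-fold (3.34 to 5.08) higher in DOPAC.

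Cells within a library differed in which genes were detected, and they also differed in depth. The part of depth in these counts was not tested. Tnfrsf9 and Gzmb were found together in 10 of 24 Control and 36 of 61 DOPAC Foxp3 T cells, and no Control cell had Gzmb without Tnfrsf9. Of the other Control cells, 9 had Tnfrsf9 without Gzmb and 5 had neither. At least 1 effector gene with no resting gene was seen in 7 of 24 Control and 31 of 61 DOPAC cells, both kinds in 14 and 24, and a resting gene alone in 1 cell of each library, at the lower depth of DOPAC. An UMI of the cell-cycle genes Mki67 or Top2a was found in 5 of 24 Control (20.8%, 7.13 to 42.2) and 18 of 61 DOPAC cells (29.5%, 18.5 to 42.6). T-cell receptor segments were read from the same counts. Trbv2 was found in 1 of 183 Control and 255 of 2711 DOPAC CD8 T cells (9.41%) and in 0 of 61 DOPAC Foxp3 T cells, a share of cells with a UMI of up to 4.92% by a limit of 3 cells and 5.87% by the Clopper-Pearson bound. No DOPAC Foxp3 T cell had a UMI of any Trbv gene, so these counts do not bound which segments the cells use. Trav genes were found in 11 DOPAC Foxp3 T cells, spread over 10 segments.

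The last comparison asked how Foxp3 T cells of the DOPAC library differed from those of Control. Of 1270 genes with at least 50 UMIs in both sums together, 92 (7.24%) were at least 2-fold higher and 106 (8.35%) at least 2-fold lower in DOPAC, and the median log2 ratio over all 1270 was -0.08. These counts describe the 2 libraries. With up to 2 UMIs of the limiting genes allowed (47 and 66 cells), 104 of the 198 genes stayed at least 2-fold apart in the same direction, and without the limits 42 did. Genes of other lineages also differed between the libraries in Foxp3 T cells, not all in the same direction. The source of this RNA was not tested. Over 6 macrophage genes outside the gate the sum was 326 CPM in Control and 101 CPM in DOPAC Foxp3 T cells, mostly Lyz2, with Ms4a7 at 0 in Control and Adgre1, Apoe and Arg1 at 0 in DOPAC. Over 7 dendritic-cell genes it was 400 and 197 CPM, mostly Cd74, with Clec9a, Xcr1 and Siglech at 0 in both. The NK list stood at 229 and 327 CPM with Ncr1 at 0 in both, and the B-cell list at 97.9 and 81.7 CPM with Cd79b and Ms4a1 at 0. Their part in the results was not tested. Of 44 named genes that were 2-fold apart, 31 stayed so with up to 2 limiting UMIs; Nkg7, Ccl5, Bach2, Id2, Foxp1, Bcl2l1, Egr1, Nfkbia, Lat, Sqstm1, Ndufa1, Uqcrq and Isg15 did not. Without the limits 13 stayed, among them Nkg7, Ccl5, Sytl3, Dock9, Serpina3g, Klf2, Mpp7, Maf, Ftl1, Iigp1, Ifi27l2a and Junb. Without the cell with most UMIs of each gene 40 stayed, and Frmd5, Egr1, Lat and Sqstm1 did not. With the gate on cells thinned to 1000 UMIs (17 and 19 cells), 26 of the 44 had a value, and Nkg7, Alcam, Ccl5, Raet1e, Foxp1 and Ftl1 were no longer 2-fold apart. Neither were Frmd5, Fos, Il7r, Egr1, Sqstm1 and Uqcrq with at least 2 Foxp3 UMIs, Id2, Bcl2l1, Egr1, Lat, Txn1, Ndufa1 and Uqcrq with class II genes at 0, Bach2, Bcl2l1, Lat, Ndufa1, Uqcrq and Isg15 with a Cd4 UMI, or Smad3, Egr1 and Hmgb2 without cycling cells.

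Of 4 measured resting T-cell genes, Klf2, Il7r and Foxp1 were at least 2-fold lower in DOPAC Foxp3 T cells and 0 higher, with a median log2 ratio of -1.54, beside 8.35% of all genes lower. Klf2, a transcription factor that keeps T cells quiescent and recirculating, had 82 UMIs in 13 of 24 Control cells and 4 UMIs in 3 of 61 DOPAC cells, at 669 and 19.2 CPM, 34.8-fold lower (13.1 to 131). The same gene was at a log2 ratio of -4.82 in Foxp3 T cells, -4.88 in CD4 T cells without Foxp3 and -4.83 in CD8 T cells, and at -2.24 in NK cells. Il7r, the interleukin-7 receptor chain, was 2.89-fold (1.76 to 4.84) lower, and 11.4-fold lower in CD8 T cells. Foxp1 was 2.98-fold (2.17 to 4.14) lower.

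The list of early-response and stress genes went both ways. Zfp36, which encodes an RNA-decay factor, was 6.20-fold (3.87 to 10.3) lower in DOPAC, at 686 against 111 CPM, and Fos, Junb and Jund, which encode AP-1 subunits, were 4.15-fold, 3.40-fold and 3.29-fold lower. Of the 10 measured members of this list these 4 were lower and Hspe1, a mitochondrial chaperone, was higher, with a median of -0.17, beside 8.35% of all genes lower and 7.24% higher. The heat shock genes Hsp90aa1 and Hsp90ab1 were at 1.87-fold (1.30 to 2.74) and 1.64-fold (1.29 to 2.11), and Hspa1a and Hspa1b, under the minimum of 50 UMIs, had 1 and 3 UMIs in Control and 27 and 29 in DOPAC. The 4 lower genes were also lower in DOPAC among CD4 T cells and CD8 T cells. Among 12 T-cell receptor signal genes, Egr1, Nfkbia and Lat were lower and Nr4a2, an orphan nuclear receptor, was 4.80-fold (2.18 to 12.5) higher. The median log2 ratio of the 12 was -0.37, beside -0.08 over all genes. Without the cell with most UMIs of the gene, Egr1 and Lat were no longer 2-fold apart. Nr4a2 was also higher in CD4 T cells without Foxp3 and in CD8 T cells, at log2 ratios of 2.08 and 1.66.

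Of 9 measured regulatory T-cell transcription factors, Bach2 and Stat5b were at least 2-fold lower and 0 higher, beside 8.35% of all genes lower. The median log2 ratio of the 9 was -0.21, beside -0.08 over all genes. Ikzf1, which encodes Ikaros, was at 1.90-fold (1.17 to 3.17). Stat5b, which carries the interleukin-2 signal to the nucleus, was 4.04-fold (2.93 to 5.65) lower in DOPAC, at 264 against 1069 CPM, and Bach2 3.50-fold (2.26 to 5.52), while Stat5b was 2.67-fold and Bach2 5.74-fold lower in CD8 T cells. Smad3, which relays TGF-beta signals that support Foxp3 expression, had 43 and 15 UMIs and was 4.87-fold (2.65 to 9.43) lower. Zhx2 was 4.74-fold and Neurl3 5.35-fold lower. Both were also lower in other T cells. Their log2 ratios were -2.35 and -1.32 in CD4 T cells without Foxp3 and -2.84 and -1.67 in CD8 T cells. Cpm, a membrane carboxypeptidase, was 4.77-fold (3.16 to 7.39) lower and was also 9.23-fold lower in CD8 T cells. Mpp7 and Raet1e were 4.80-fold and 4.79-fold lower, and 42.5% of the Control Mpp7 UMIs lay in 1 cell. Frmd5 was 4.13-fold lower, but 78.6% of its Control UMIs came from 1 cell, without which the log2 ratio of -2.01 became 0.08. Traf1, an adaptor of TNF receptors, was 3.06-fold (2.15 to 4.40) lower, whereas in CD4 T cells without Foxp3 it was 1.53-fold (1.05 to 2.24) higher.

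Among the genes higher in DOPAC were cytotoxic and chemokine genes. Nkg7, a granule membrane protein of cytotoxic cells, had 6 UMIs in 3 of 24 Control cells and 113 UMIs in 38 of 61 DOPAC cells, at 49.0 and 543 CPM, 11.1-fold higher (4.94 to 30.9). Ccl5, a chemokine of effector lymphocytes, was at 261 and 1553 CPM, 5.95-fold (4.13 to 8.84), with 87.5% of the Control UMIs in 1 cell and 51 of 61 DOPAC cells positive. In CD4 T cells without Foxp3, Nkg7 was also 3.81-fold (2.86 to 5.13) higher in DOPAC, and Ccl5 4.49-fold (3.89 to 5.21). Both are CD8 T-cell markers too. CD8 T cells stood at 4440 and 6619 CPM of Ccl5, and the 5 markers of that list outside the gate summed to 326 CPM in Control and 2120 CPM in DOPAC Foxp3 T cells, with Gzmk and Eomes at 0 in both. Macrophages had Nkg7 at 40.5 and 81.1 CPM. The part of CD8 T-cell RNA in this difference was not tested.

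Alcam, an adhesion molecule that binds CD6, was 6.11-fold (3.65 to 10.9) higher, at 131 and 798 CPM, and 5.09-fold higher in CD4 T cells without Foxp3, while macrophages had 1093 and 1601 CPM of it; its log2 ratio of 2.53 was 0.54 after thinning. Cxcl10, an interferon-induced chemokine, had 3 and 47 UMIs, a ratio of 9.23 (2.97 to 46.4), with 14 DOPAC cells positive; macrophages had 472 and 1009 CPM of it. Sytl3, Dock9 and Serpina3g were 6.48-fold, 6.09-fold and 4.71-fold higher from 5 or 6 Control UMIs each. In CD4 T cells without Foxp3 their log2 ratios were 0.79, 1.70 and 2.32, and in CD8 T cells 0.33, 0.57 and 1.81.

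Of 8 measured effector regulatory T-cell genes, Maf and Id2 were at least 2-fold higher and Traf1 lower, with a median of 0.06, beside 7.24% and 8.35% of all genes. Maf was 2.55-fold (1.95 to 3.38) higher in DOPAC and Id2, an inhibitor of E proteins, 2.74-fold (1.68 to 4.69), at 447 against 163 CPM. In CD4 T cells without Foxp3, Maf and Id2 were 2.15-fold (1.66 to 2.81) and 3.41-fold (2.52 to 4.68) higher. In Foxp3 T cells, Tnfrsf9 was 1.08-fold (0.855 to 1.38). Inhibitory receptors other than Ctla4 were thin and went both ways. Lag3 had 2 and 20 UMIs and Havcr2 4 and 24 UMIs. Pdcd1 had 19 and 13 UMIs, 2.48-fold (1.16 to 5.47) lower in DOPAC. Nrp1, the receptor neuropilin-1, had 10 UMIs in 8 Control cells and 1 UMI in DOPAC, and Itgae, the integrin CD103, 15 and 4 UMIs. These genes were under the minimum of 50 UMIs and were not counted. None of the 7 measured core genes and none of the 4 measured suppressive effectors reached 2-fold. The core list's median was -0.07, with Icos at 1151 and 1096 CPM.

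Of 11 measured interferon-induced genes, Isg15, Ifi27l2a and Iigp1 were at least 2-fold higher (7.24% of all genes were) and 0 lower, with a median log2 ratio of 0.94 beside -0.08 over all genes. Ifi27l2a was found in 22 of 24 Control and 59 of 61 DOPAC cells, at 1183 and 4409 CPM, 3.73-fold (3.12 to 4.47) higher, and 3.45-fold and 3.08-fold higher in CD4 and CD8 T cells. Iigp1, an interferon-induced GTPase, was 4.21-fold (2.35 to 8.21) higher, with 2 and 35 UMIs in CD4 T cells and 8.55 and 14.1 CPM in CD8 T cells. Ly6a had a log2 ratio of 0.99 with 1 count added and a fold of 2.001 (1.55 to 2.61) without, at the 2-fold limit. Bst2 and Irf1 had log2 ratios of -0.50 and -0.30. Macrophages had 1060 and 2582 CPM of Ifi27l2a, in the same order of libraries.

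Of 15 measured nuclear genes of oxidative phosphorylation, the respiratory chain and ATP synthase, 4 were at least 2-fold higher in DOPAC (Ndufa1, Uqcrq, Cox6c and Atp5k) and 0 lower, with a median of 0.57, beside 7.24% of all genes higher. Cox6c was 3.60-fold (2.20 to 6.19) and Atp5k 5.30-fold (2.11 to 17.1) higher. In CD4 T cells without Foxp3, Cox6c and Atp5k were 2.35-fold and 3.41-fold higher, and Ndufa1 and Uqcrq 1.11-fold and 1.27-fold. In Foxp3 T cells, none of 9 measured glycolysis genes reached 2-fold, and their median was -0.66. Metallothionein Mt1, a metal- and stress-responsive gene, was 9.23-fold (4.09 to 25.8) higher, at 49.0 and 452 CPM, and 11.3-fold higher in CD8 T cells; macrophages had 621 and 682 CPM. NRF2 targets went both ways, with Txn1, which encodes thioredoxin, 2.69-fold (1.70 to 4.43) higher and Ftl1 and Sqstm1 2.76-fold and 2.24-fold lower, among 5 measured. Txn1 was also 3.52-fold higher in CD4 T cells without Foxp3, and Ftl1 and Sqstm1 were 2.06-fold and 1.45-fold lower there. Hmgb2, a chromatin protein abundant in cycling cells, was 2.61-fold higher and was the only proliferation gene with enough UMIs; without the cells with Mki67 or Top2a UMIs its log2 ratio of 1.36 was 0.50. In the interleukin-2 receptor list Bcl2l1, which encodes the survival protein BCL-XL, was 2.62-fold (1.35 to 5.597) higher and 5 others stayed under 2-fold. Bcl2l1 was 5.45-fold (3.03 to 10.5) higher in CD4 T cells without Foxp3. The helper cytokine list, the lipid list and the list of dopamine receptors and catechol enzymes had 0 measured members.

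**Figure D5:**
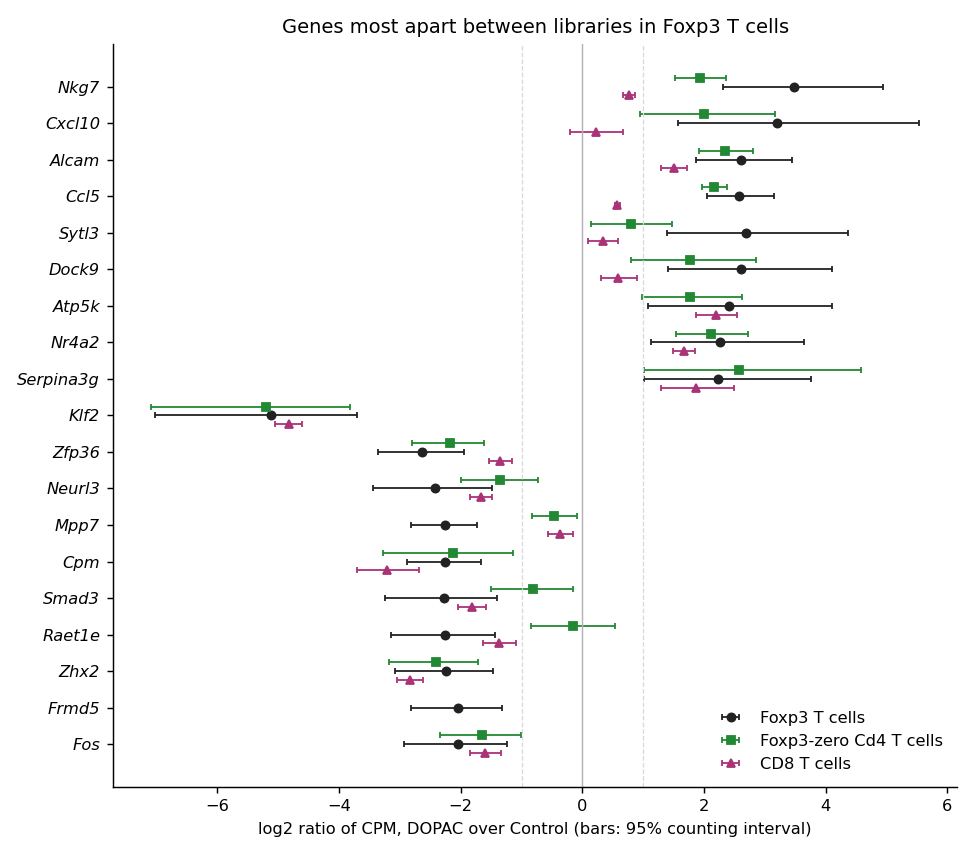
Points give the log2 ratio of CPM, DOPAC over Control, with 95% counting intervals for 9 of the 10 highest and the 10 lowest genes chosen by rule in Foxp3 T cells (black circles), with the same genes in CD4 T cells without Foxp3 (green squares) and CD8 T cells (purple triangles); a gene with 0 UMIs in 1 library is not drawn. The ratios are drawn with no count added. Klf2 is the lowest in all 3 kinds of T cell, at 34.8-fold lower in Foxp3 T cells, while Mpp7 lies farther from 0 in Foxp3 T cells than in CD4 T cells.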

How the data were processed

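The authors deposited 1 matrix of raw UMI counts per library, whole numbers per gene and barcode with no normalization, produced by Cell Ranger (version 7.0.1 in the matrix headers, that is per the file headers) against GRCm38, per the submitters' processing notes. Both libraries cover 32285 genes, and Control held 9629 barcodes and DOPAC 10777.

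The cell rule and the gene lists were chosen with earlier results of these data known. The UMI limits that define the comparison cells (CD4 T, CD8 T, NK, macrophage and B) were set after the data were seen. No doublets were removed, because the rule names no caller; Scrublet (scanpy 1.11.5) served as an alternative. In DOPAC its automatic threshold marked 0 cells, so the 815 highest scores were taken.

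The UMIs of each gate's cells were added up per gene and scaled to 1e6 UMIs (CPM). Intervals are exact for shares (Clopper-Pearson), CPM (Poisson) and ratios (conditional on the summed count). For differences of shares they are Newcombe intervals, which are approximate. All intervals cover counting error only. For a share of 0 cells with a UMI, the limit set by 3 cells is printed beside the Clopper-Pearson bound. Log2 ratios had 1 count added to each sum, and folds did not. No test was run, since each group is 1 library, and DOPAC cannot be told apart from other differences between the libraries. For thinning, each cell was drawn down to 1000 UMIs and shallower cells were left out. The ratio code was tested on simulated data.

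Named genes were the 6 markers, list members at least 2-fold apart (up to 4 per list, with up to 2 that were not), and the 10 highest and 10 lowest of each comparison, the CD8 T-cell comparison by the same rule. From the last, gate genes, mitochondrial, ribosomal protein, receptor and immunoglobulin segment genes, unnamed models, genes 2-fold apart in the same direction in all other gates and genes with at least 5 times the CPM in NK, macrophage, dendritic, B or melanoma cells were left out. Genes such as Lag3, Havcr2, Nrp1, Itgae, Prf1, Klrd1 and Trbv2 were named after their values were seen. Gene positions come from GENCODE M21. Tools were Python 3.11.15, numpy 2.4.6, scipy 1.17.1, pandas 2.3.3 and matplotlib 3.10.9. Some genes that the rule picks are not reported here.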

Additional observations from a re-analysis of the deposited data

Results flagged for a closer look

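Frmd5, which encodes a FERM-domain protein, moved in opposite directions in 2 kinds of T cell. Its DOPAC over Control log2 ratio was -2.01 in Foxp3 T cells (56 Control and 23 DOPAC UMIs) and 2.28 in CD8 T cells (0 Control and 59 DOPAC UMIs). The difference was not tested, since each group is 1 library. In Control Foxp3 T cells, 78.6% of the Frmd5 UMIs came from 1 of 3 positive cells, and without that cell the log2 ratio was 0.08.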

How the results depend on the processing

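The difference of 0.320 points (Control 0.284%, DOPAC 0.604%) was 0.0620 (0.166% and 0.228%) with at least 2 Foxp3 UMIs, 0.103 (0.0947% and 0.198%) with a Cd4 UMI, -0.00757 after thinning to 1000 UMIs (DOPAC 0.196%), 0.0972 (Control 0.557%) with up to 2 UMIs of the limiting genes and -1.12 (1.91% and 0.783%) without limits. Shares were 0.0592% and 0.396% with class II genes at 0, and DOPAC was 0.426% without Mki67 or Top2a cells. Counts of genes higher and lower in DOPAC were 92 and 106. They were 310 and 268 at 20 UMIs, 33 and 40 at 100 UMIs, 214 and 269 at 1.5-fold, 27 and 39 with a Cd4 UMI, 47 and 59 without cycling cells, 7 and 2 after thinning, and 497 and 812 without limits; 31 were higher with at least 2 Foxp3 UMIs and 56 lower with class II genes at 0. Against CD4 T cells (22 higher, 12 lower), counts were 193 and 64 with CD8 T cells in their place, 58 and 32 at 20 UMIs, 3 and 0 after thinning and 56 and 25 without limits; 36 were higher with up to 2 limiting UMIs and 19 lower with at least 2 Foxp3 UMIs. Reversed log2 ratios were Id2 at -0.0359 and Bcl2l1 at -0.0291 with class II genes at 0, Raet1e at 0.20 after thinning, Bach2 at 0.66 with a Cd4 UMI, Frmd5 at 0.0246, Egr1 at 0.32 and Uqcrq at -0.18 without limits, Frmd5 at 0.0817 without its top cell, and Icos over CD4 T cells in Control at -0.21 without limits. The cause was not tested. Of 44 named genes at least 2-fold apart between libraries, 37 kept their sign under each alternative that gave them a value (26 had one after thinning, 43 with a Cd4 UMI), and Klf2 ranged from -5.64 to -1.74. No paired analysis was possible because each group has 1 library. The limits on up to 2 UMIs, on none, and the top cell were added after seeing the data. The 24 Control cells and 122533 UMIs limit every ratio.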
